A study of Mus musculus with 17 samples.

Results

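The comparison described here is a difference of inductions in 3134 cells, a mouse mammary epithelial line: the response of the dnBrg1 line to induction minus the response of the dnChd4 line. It rests on 8 of the series' 17 Affymetrix arrays, all those labelled as one of 4 groups with 2 arrays each: dnBrg1 induced, dnBrg1 repressed, dnChd4 induced and dnChd4 repressed. All cells carried the tetracycline-regulated transactivator. The dnBrg1 line added a Flag-tagged dominant-negative Brg1, and the dnChd4 line a Flag-tagged dominant-negative Chd4, which some source names write as Chd4 alone. Induced cells were plated without tetracycline for 48 h and repressed cells were plated with it, after stocks had been kept in 5 µg/ml. Charcoal-treated serum was used in every group. Both lines lost the drug and gained the transactivator. Effects of these cancel in the difference only as far as they were equal in the lines, which was not tested. Other effects that differ between the lines do not cancel. The labels do not say whether a line was 1 clone, or how the replicates were made. The p-values therefore reflect the spread between the arrays of a group, and that spread may be technical.

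Chromatin remodelers use ATP to slide, eject or restructure nucleosomes and so change access to promoters and enhancers. Brg1, encoded by Smarca4, is a motor of SWI/SNF complexes, which are best known for opening chromatin. Chd4 is a motor of NuRD, which joins remodeling to histone deacetylases and is known mostly for repression, though each complex has been found at active and silent sites. A dominant-negative form takes the place of the working protein in its complexes. The difference of inductions picks out the genes whose response to induction differed between the lines.

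In what follows, an induction is the mean log2 signal of a line's induced arrays minus that of its repressed arrays. The difference is the dnBrg1 induction minus the dnChd4 induction, so a negative value means that dnBrg1 gave the lower response. A gene is called when limma's adjusted p (Benjamini-Hochberg over 19938 genes) is under 0.05, and every adjusted p below is from that limma fit. Arrays of a group correlated at 0.9967 to 0.9983 across genes, and every array's closest match was its own replicate. Over all genes the median difference was -0.0131. The arrays had no read depth, and only 2 arrays per group limit the precision. Markers went partly against the epithelial label: Epcam (4 to 4.19) and Krt19 (4.49 to 4.74) were among the dimmest 30% of genes, whose mean log2 signal over the 8 arrays lay under 4.749, and Cdh1 read 5.08 to 5.24, while the mesenchymal filament gene Vim read 12.29 to 12.93. The control arrays of the series do not enter the fit, and an earlier analysis of these data found that they did not group by their labels.

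The difference was called for 445 of 19938 genes (2.23%), of which 99 were higher (0.497%) and 346 lower (1.74%). At an unadjusted p under 0.05 there were 2789 genes. The lower differences included smooth muscle and troponin genes (Acta2, Tagln, Tnnt2), chemokine and acute-phase genes (Ccl7, Lcn2, Ptx3), matrix and protease genes (Mmp19, Adamts1, Loxl1) and genes that are usually markers of vessels or leukocytes (Mcam, Madcam1, Lcp1). These are single genes and not whole classes: the chemokine, endothelial and leukocyte lists described below had median differences between -0.01 and 0.03. The higher differences were led by Csnk1g1, Auts2, the iron exporter Slc40a1 and the fatty acid receptor Cd36. Among the higher genes the median difference was 0.69 and 17 were at least 2-fold, and among the lower genes the median was -0.77 and 82 were at least 2-fold. The count depended on single arrays: it was 161 without dnBrg1 induced replicate 1, 171 without dnBrg1 induced replicate 2, 180 without dnChd4 induced replicate 1, 188 without dnChd4 repressed replicate 2 and 285 without dnBrg1 repressed replicate 1. With all 17 arrays in the fit it was 26.

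Most genes called in both lines moved the same way. The dnBrg1 induction was called for 3833 genes (19.2%), of which 2067 rose (10.4%) and 1766 fell (8.86%). The dnChd4 induction was called for 4521 genes (22.7%), of which 2699 rose (13.5%) and 1822 fell (9.14%), and these inductions share no array. Both were called for 2480 genes, of which 2441 moved the same way, 1474 rising and 967 falling. Those 2441 genes made up 63.7% of the dnBrg1 calls and 54% of the dnChd4 calls, and the inductions correlated at 0.672 across genes, which are not independent replicates. Of the 2441 genes, 88 also had a called difference, beside 445 of all 19938 genes.

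**Figure D1:**
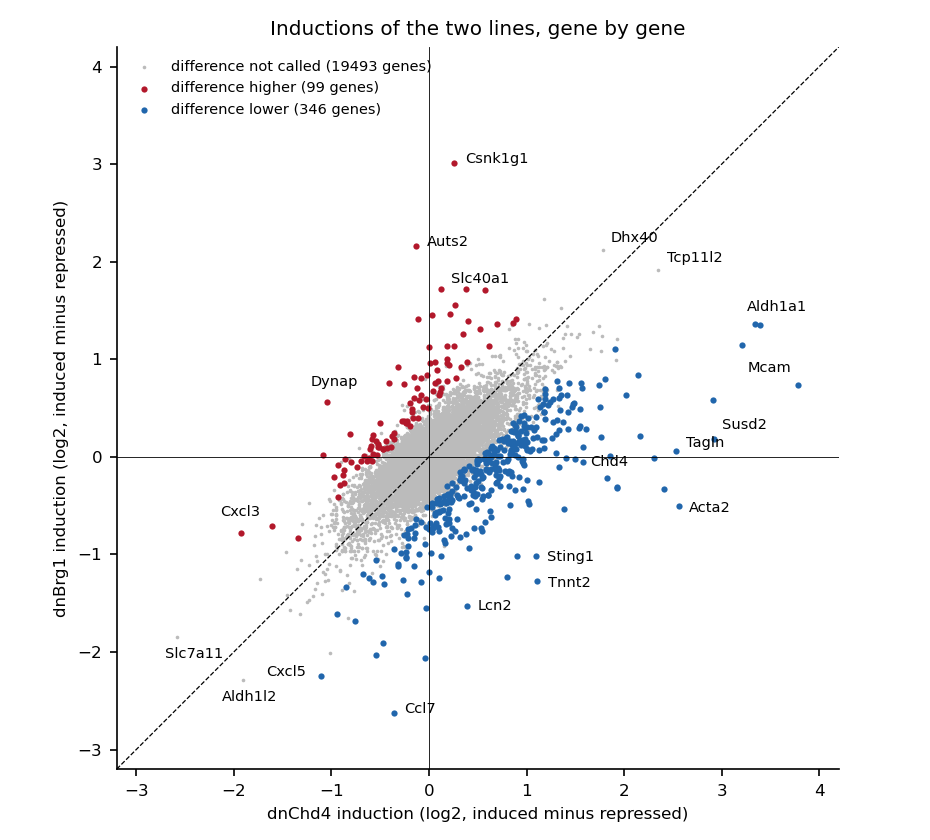
Each point is 1 gene, with its dnChd4 induction on the horizontal axis and its dnBrg1 induction on the vertical axis, both in log2. Red points are the 99 genes whose difference was called higher, blue points the 346 called lower, and grey points the other genes. The dashed line marks equal inductions, and most genes lie along it.

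The called differences came about in several ways. Of the 346 lower genes, 160 rose with dnChd4 and were not called with dnBrg1, 81 fell with dnBrg1 and were not called with dnChd4, 54 rose in both and 17 fell in both. A further 34 fell with dnBrg1 and rose with dnChd4. Of the 99 higher genes, 44 rose with dnBrg1 and were not called with dnChd4, 33 fell with dnChd4 and were not called with dnBrg1, 12 rose in both, 5 fell in both and 5 rose with dnBrg1 and fell with dnChd4.

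**Figure D2:**
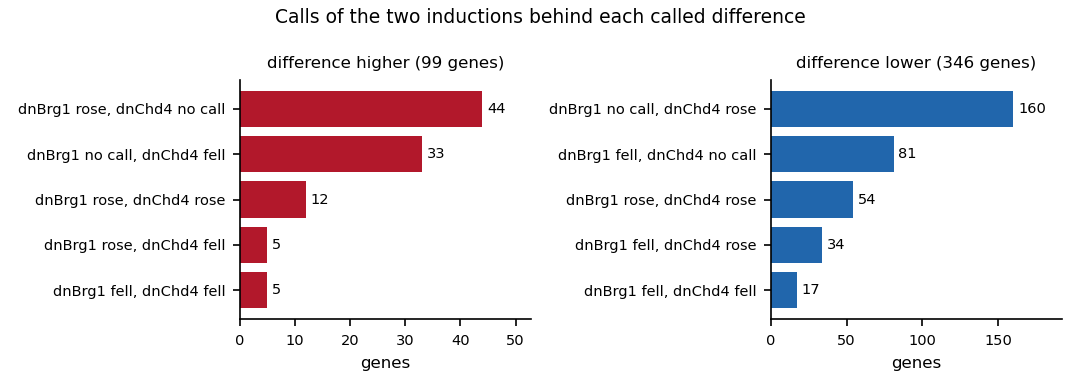
The bars count genes by the call of each line's induction, for the 99 genes with a higher difference (left) and the 346 with a lower one (right). The longest bar on the left is 44 genes that rose with dnBrg1 and had no dnChd4 call, and the longest on the right is 160 genes that rose with dnChd4 and had no dnBrg1 call.

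The lines also differed in the repressed state for many of these genes. The means of the repressed groups lay within 0.5 log2 of each other for 58 of the 99 higher genes (58.6%) and 218 of the 346 lower genes (63%), against 92.8% of all genes tested. In the induced groups the same held for 46 higher genes (46.5%) and 147 lower genes (42.5%), against 92.4% of all genes. The difference of inductions is the gap between the lines when induced minus their gap when repressed. Genes chosen for a large difference therefore tend to have a wide gap when induced, when repressed or in both. The contrast with all genes follows in part from that choice and is no separate result. The part of these line differences in the result was not tested.

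The targeted genes came out unevenly. Chd4 read 12.27 and 12.27 in dnChd4 induced arrays, against 10.56 and 10.35 in dnChd4 repressed arrays, a rise of 3.53-fold (adjusted p = 3.72e-07). In the dnBrg1 line Chd4 read 10.06 and 10.01 induced, against 10.36 and 10.15 repressed, and the difference was -2.04 ± 0.138 (SE, adjusted p = 6.8e-06). Chd4 was thus high only in the arrays labelled as expressing dnChd4, and whether the probe set read the transgene was not tested. Smarca4 read 9.61 and 9.73 in dnBrg1 induced arrays, against 9.66 and 9.46 in dnBrg1 repressed arrays, which overlapped, and 9.29 and 9.22 in dnChd4 induced arrays, against 9.31 and 9.22 in dnChd4 repressed arrays. Its difference was 0.12 with a 95% interval of -0.17 to 0.4 (adjusted p = 0.752), so this probe set gave no check of dnBrg1 expression. Nr3c1, the glucocorticoid receptor through which this line is often studied, had a difference of 0.07 (interval -0.22 to 0.37), and the Chd4 paralog Chd3 rose by 0.53 with dnBrg1 and 0.56 with dnChd4. Smarca2, the alternative SWI/SNF motor, fell by 0.68 with dnBrg1 (8.69 and 8.73 induced, against 9.52 and 9.24 repressed) and had a dnChd4 induction of 0.07 that was not called (8.57 and 8.57 induced, against 8.52 and 8.48 repressed). Its difference of -0.74 (adjusted p = 0.0134) was the only call among 28 SWI/SNF subunits (3.57%, against 2.23% of all genes), and it was called in 4 of the 8 fits that left out 1 array. Chd4 was the only call among 15 NuRD subunits (6.67%).

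Among the genes that responded more to dnBrg1, Csnk1g1, a casein kinase 1 isoform, stood highest. It read 10.13 and 10.21 in dnBrg1 induced arrays, against 7.3 and 7.02 in dnBrg1 repressed arrays, and 7.52 and 7.42 in dnChd4 induced arrays, against 7.24 and 7.17 in dnChd4 repressed arrays. The dnBrg1 induction was 8.05-fold, and the difference was 2.75 ± 0.14 (SE, adjusted p = 2.06e-06). Auts2, whose protein joins certain Polycomb complexes, read 6.97 and 7.23 in dnBrg1 induced arrays, against 4.98 and 4.91 repressed, and 4.74 and 4.7 in dnChd4 induced arrays, against 4.85 and 4.86 repressed. Its difference was 2.29 ± 0.132 (adjusted p = 2.35e-06). In both genes the dnBrg1 induced arrays stood far above the other 6 arrays, which lay close together.

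Slc40a1 encodes ferroportin, the exporter of cellular iron. It read 6.58 and 6.39 in dnBrg1 induced arrays, against 4.77 and 4.75 repressed, and 3.9 and 3.95 in dnChd4 induced arrays, against 3.88 and 3.74 repressed. The difference was 1.61 (adjusted p = 3.19e-05), and both dnChd4 groups lay under the dim bound. Cd36 was alike in pattern: 5.91 and 5.98 in dnBrg1 induced arrays, against 4.48 and 4.6 repressed, and 3.23 and 3.42 in dnChd4 induced arrays, against 3.35 and 3.51 repressed (difference 1.52, adjusted p = 8.07e-05), with means under the dim bound in all groups but the dnBrg1 induced one. Hs3st1, a heparan sulfate sulfotransferase, rose 2.72-fold with dnBrg1 (7.23 and 7.32 induced, against 5.88 and 5.78 repressed) and its dnChd4 groups overlapped (4.97 and 4.83 induced, against 4.67 and 5.07 repressed). The remaining genes of the 15 highest that rose with dnBrg1 and were not called with dnChd4 were Cyp2b13 (difference 1.35), Serpini1, which encodes neuroserpin (1.24), and Elmo1, which activates the GTPase Rac with Dock proteins (1.12). Cyp2b13 and Serpini1 were below the dim bound in 3 of the 4 groups, so their fold changes are less certain, and they were called in 3 and 6 of the 8 fits that left out 1 array. Mfsd13a (difference 1.29) rose 2.96-fold with dnBrg1 and 1.21-fold with dnChd4.

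Other higher differences went with a fall in the dnChd4 line. Vegfd, a growth factor for lymphatic vessels, read 8.21 and 8.17 in dnBrg1 induced arrays, against 8.37 and 7.97 repressed, and 6.41 and 6.3 in dnChd4 induced arrays, against 7.54 and 7.35 repressed. It fell 2.13-fold with dnChd4 and was not called with dnBrg1, for a difference of 1.11 (adjusted p = 0.00511). The neutrophil chemokine gene Cxcl3 fell in both lines, 1.72-fold with dnBrg1 and 3.8-fold with dnChd4, for a difference of 1.14 (adjusted p = 0.00257).

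The lowest difference was that of Acta2, which encodes smooth muscle actin. It read 6.01 and 5.97 in dnBrg1 induced arrays, against 6.35 and 6.62 repressed, and 8.11 and 9 in dnChd4 induced arrays, against 5.94 and 6.06 repressed. The dnChd4 induced arrays stood above all others and differed from each other by more than any other group, and the difference was -3.05 ± 0.292 (adjusted p = 0.00017). Tagln, whose product SM22 binds actin in smooth muscle, followed the same pattern: 5.58 and 5.37 in dnBrg1 induced arrays, against 5.42 and 5.41 repressed, and 7.71 and 8.43 in dnChd4 induced arrays, against 5.62 and 5.46 repressed (difference -2.47, adjusted p = 0.00019). The median difference of the 20 contractile and smooth muscle genes measured was -0.29. Of these, 5 were called lower and 0 higher (25%, against 2.23% of all genes). The others were Cnn1, which encodes calponin (-0.98), the actin gene Actg2 (-0.87) and the filament gene Des (-0.81). With dnBrg1 3 of the 20 rose and 2 fell, against 10.4% and 8.86% of all genes, and with dnChd4 11 rose and 1 fell, against 13.5% and 9.14% of all genes. The tropomyosin gene Tpm2 had inductions of 0.76 and 0.8 and a difference of -0.04, and the regulators Srf (0.16) and Myocd (0.25) had differences that were not called. The count of 5 was 2 without dnBrg1 induced replicate 2 and 3 without dnChd4 repressed replicate 2, and Acta2 and Tagln were called whichever array was left out. Probe sets shared between actin genes were not tested for.

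The Acta2 promoter is shown because smooth muscle genes are classically driven through CArG boxes, the sites of serum response factor. It lies at chr19:34255324-34255623 on the minus strand (RefSeq, GRCm38.p6) and runs 250 bases before to 50 after the start. Capitals mark CArG-like stretches, a looser form searched for after the sequence had been seen and read as CC, 6 bases and GG, with at most 1 C or G among the 6, on either strand.
Acta2: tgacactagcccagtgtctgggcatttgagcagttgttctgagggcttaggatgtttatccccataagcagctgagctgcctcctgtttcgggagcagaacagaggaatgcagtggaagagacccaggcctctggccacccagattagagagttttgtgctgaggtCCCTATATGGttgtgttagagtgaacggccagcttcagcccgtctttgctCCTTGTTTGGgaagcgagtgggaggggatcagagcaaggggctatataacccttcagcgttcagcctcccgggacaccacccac
Both capital stretches have 1 such base, and neither is a strict CArG box with A or T at all 6. A match of the looser kind is in 9.98% of 32851 promoters of the same length, and a strict one in 1.63%. A match is a description of the letters and not a measured site.

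Muscle genes outside that list included Tnnt2 and Nppb. Tnnt2, the cardiac troponin T gene, went in opposite directions: 7.2 and 7.3 in dnBrg1 induced arrays, against 8.46 and 8.57 repressed, and 9.3 and 9.19 in dnChd4 induced arrays, against 7.91 and 8.36 repressed (difference -2.38, adjusted p = 1.57e-05). Nppb, which encodes the natriuretic peptide BNP, read 6.27 and 6.34 in dnBrg1 induced arrays, against 6.29 and 6.35 repressed, and 8.98 and 9.34 in dnChd4 induced arrays, against 6.66 and 7.05 repressed (difference -2.32, adjusted p = 3.85e-05).

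**Figure D3:**
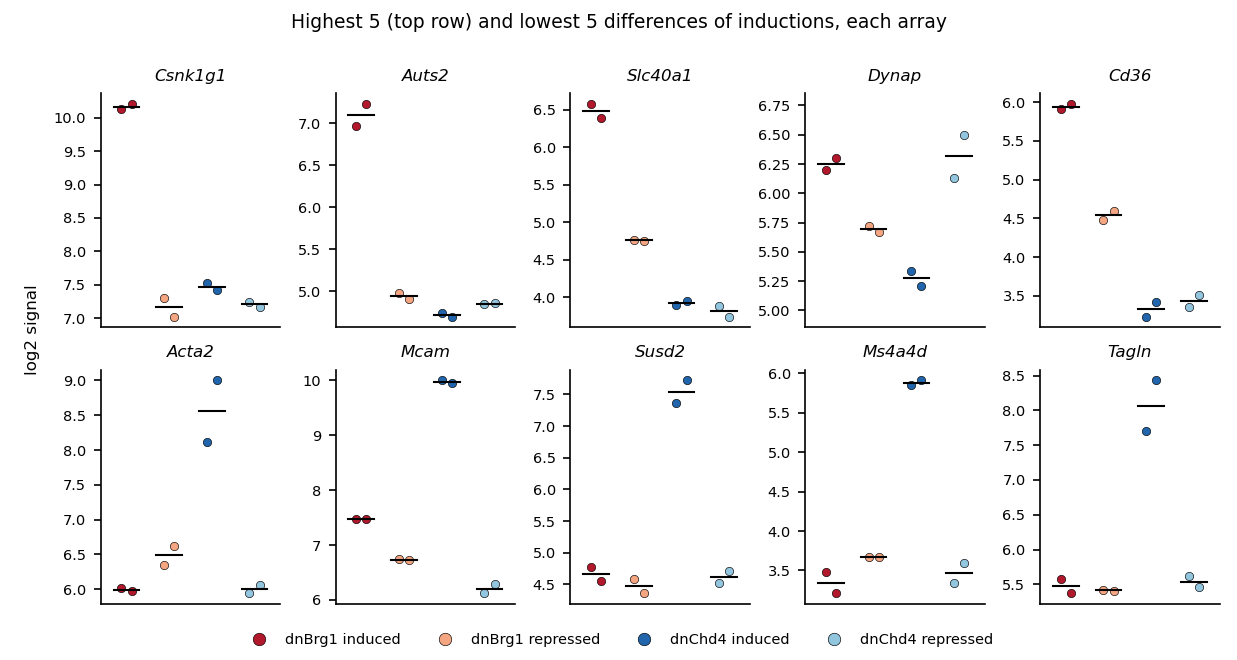
Points are the log2 signals of single arrays and bars are means of 2 arrays, for the 5 highest (top row) and 5 lowest differences (bottom row). In Csnk1g1, Auts2, Slc40a1 and Cd36 the dnBrg1 induced arrays stand apart, and in the bottom row the dnChd4 induced arrays do. Vertical axes differ between panels and do not start at 0.

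Several surface and vessel genes rose far more with dnChd4. Mcam, an adhesion molecule of vessel walls, read 7.48 and 7.48 in dnBrg1 induced arrays, against 6.74 and 6.73 repressed, and 10 and 9.96 in dnChd4 induced arrays, against 6.12 and 6.29 repressed. It rose 1.67-fold with dnBrg1 and 13.7-fold with dnChd4, a difference of -3.03 ± 0.117 (adjusted p = 1.64e-07). The membrane protein genes Susd2 and Ms4a4d rose 7.58-fold and 5.32-fold with dnChd4 and were not called with dnBrg1, and each was under the dim bound in the other 3 groups. Madcam1, an addressin of mucosal vessels, read 5.07 and 4.83 in dnBrg1 induced arrays, against 5.22 and 5.3 repressed, and 7.41 and 6.89 in dnChd4 induced arrays, against 5.3 and 5.16 repressed (difference -2.24, adjusted p = 0.000105). Adgrg1, an adhesion receptor, rose 2.57-fold with dnBrg1 and 10.1-fold with dnChd4 (difference -1.98), and was named after its values were seen, as were Aqp1, Des and the members of lists beyond their 4 best. Of 13 endothelial markers 2 were called lower (15.4%, against 2.23% of all genes), Mcam and Eng (-0.64), and the median difference was 0.03. Eng was called in 1 of the 8 fits that left out 1 array, and the count was 1 without any of the dnBrg1 arrays, dnChd4 induced replicate 1 or dnChd4 repressed replicate 2. Their summed signal was 560 to 567 in dnBrg1 induced arrays, against 489 to 512 repressed, and 1707 to 1767 in dnChd4 induced arrays, against 748 to 750 repressed. Mcam made most of that gap: the sum of the other 12 was 382 to 388 in dnBrg1 induced arrays, against 382 to 406 repressed, and 708 to 745 in dnChd4 induced arrays, against 670 to 680 repressed. Pecam1, Tek and Emcn were dim in all 4 groups. Cdh5, another marker, differed between the lines with no called induction: 4.37 and 4.38 in dnBrg1 induced arrays, against 3.86 and 4.47 repressed, and 8.33 and 8.18 in dnChd4 induced arrays, against 8.12 and 8.08 repressed. The part of other cell types in these results was not tested, and in these bulk RNAs fewer cells of a type cannot be told apart from less RNA per cell.

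Lcp1, the actin-bundling plastin of leukocytes, read 6.69 and 6.85 in dnBrg1 induced arrays, against 6.24 and 6.13 repressed, and 7.6 and 7.54 in dnChd4 induced arrays, against 4.73 and 4.58 repressed. Its difference was -2.33 (adjusted p = 2.35e-06), and the repressed dnChd4 arrays were the lowest of the 8. Of 22 macrophage and leukocyte markers, 3 were called lower and 0 higher, whichever array was left out: Lcp1, Pld4 (-1.95), an endolysosomal nuclease, and Cd68 (-1.51), a lysosomal glycoprotein. These calls made 13.6% of the list, against 2.23% of all genes. The list's median difference was 0 on this scale, and 11 members, among them Ptprc, Csf1r, Adgre1 and Itgam, were dim in all groups. The summed signal of the list was 819 to 822 in dnBrg1 induced arrays, against 696 to 707 repressed, and 939 to 972 in dnChd4 induced arrays, against 600 to 613 repressed. Without Lcp1, Pld4 and Cd68 the sum of the other 19 was 622 to 634 in dnBrg1 induced arrays, against 509 to 543 repressed, and 551 to 558 in dnChd4 induced arrays, against 503 to 507 repressed. Lyz2, the macrophage lysozyme gene, rose in both lines, by 1.34 and 1.74. Cd74, the invariant chain of class II antigen presentation, was the only call among 18 antigen presentation genes: it read 4.4 and 4.49 in dnBrg1 induced arrays, against 4.46 and 4.48 repressed, and 5.94 and 5.99 in dnChd4 induced arrays, against 4.45 and 4.48 repressed (difference -1.52, adjusted p = 1.44e-05). The means of Cd74 and Pld4 were under the dim bound in all groups but the dnChd4 induced one. Cd74 alone made 5.56% of the antigen presentation list.

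Several genes of inflammatory secreted proteins fell with dnBrg1, and some of them also fell with dnChd4. Ccl7, a chemokine for monocytes, read 6.94 and 7.06 in dnBrg1 induced arrays, against 9.52 and 9.73 repressed, and 9.64 and 9.51 in dnChd4 induced arrays, against 9.92 and 9.94 repressed. It fell 6.17-fold with dnBrg1 and 1.28-fold with dnChd4, a difference of -2.27 ± 0.134 (adjusted p = 2.58e-06). Of 25 chemokine genes 4 were called lower and 1 higher (Cxcl3), whichever array was left out, with a median difference of -0.01. Cxcl12, which guides stem cells and lymphocytes, read 7.42 and 7.38 in dnBrg1 induced arrays, against 9.4 and 9.21 repressed, and 7.26 and 7.1 in dnChd4 induced arrays, against 7.88 and 7.42 repressed (difference -1.44). Cxcl5, a neutrophil attractant, fell 4.77-fold with dnBrg1 and 2.16-fold with dnChd4 (difference -1.14). Ccl2, the main monocyte attractant, fell 1.77-fold with dnBrg1 and rose 1.25-fold with dnChd4 (difference -1.15). The chemokines Cxcl1 (-0.01) and Cxcl2 (0.02) had differences near 0 that were not called, and 9 of the 25 were dim in all groups. The called differences in either direction made 20% of the list, against 2.23% of all genes. With dnBrg1 6 of the 25 fell and 0 rose, against 8.86% and 10.4% of all genes. With dnChd4 6 fell and 2 rose, against 9.14% and 13.5% of all genes.

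Of 21 acute-phase and innate secreted protein genes 5 were called lower and 0 higher (23.8%, against 2.23% of all genes). The list's median difference was -0.15. With dnBrg1 8 of the 21 fell and 0 rose, against 8.86% and 10.4% of all genes. With dnChd4 3 fell and 5 rose, against 9.14% and 13.5% of all genes. Lcn2, which encodes the siderophore-binding lipocalin, read 8.68 and 8.47 in dnBrg1 induced arrays, against 10.2 and 10.02 repressed, and 10.81 and 11.13 in dnChd4 induced arrays, against 10.43 and 10.73 repressed (difference -1.92, adjusted p = 0.00017). Ptx3, a long pentraxin that tags microbes, read 6.06 and 6.03 in dnBrg1 induced arrays, against 7.21 and 7.34 repressed, and 7.11 and 7.62 in dnChd4 induced arrays, against 6.41 and 6.72 repressed (difference -2.03, adjusted p = 0.00023). In Ptx3 and Lcn2 the dnBrg1 induced arrays were the lowest of the 8. C1s1, a complement C1 protease, likewise fell with dnBrg1 and rose with dnChd4 (difference -1.92), whereas the serum amyloid gene Saa3 (-1.49) and the orosomucoid gene Orm3 (-0.71) fell in both lines and more with dnBrg1. Saa3 and Orm3 belong to families of similar genes, and sharing of probes within them was not tested. Orm3 was the least certain of these: its means were under the dim bound in both induced groups. Its difference ran from -0.89 to -0.54 across the alternatives, and under most of them it was not called. Csf1, a macrophage growth factor, was the only call (-0.73, adjusted p = 0.0203) among 26 NF-kB subunits, feedback regulators and cytokines, and it was called in 2 of the 8 fits that left out 1 array. The median of that list was -0.11, and the call made 3.85% of it.

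**Figure D4:**
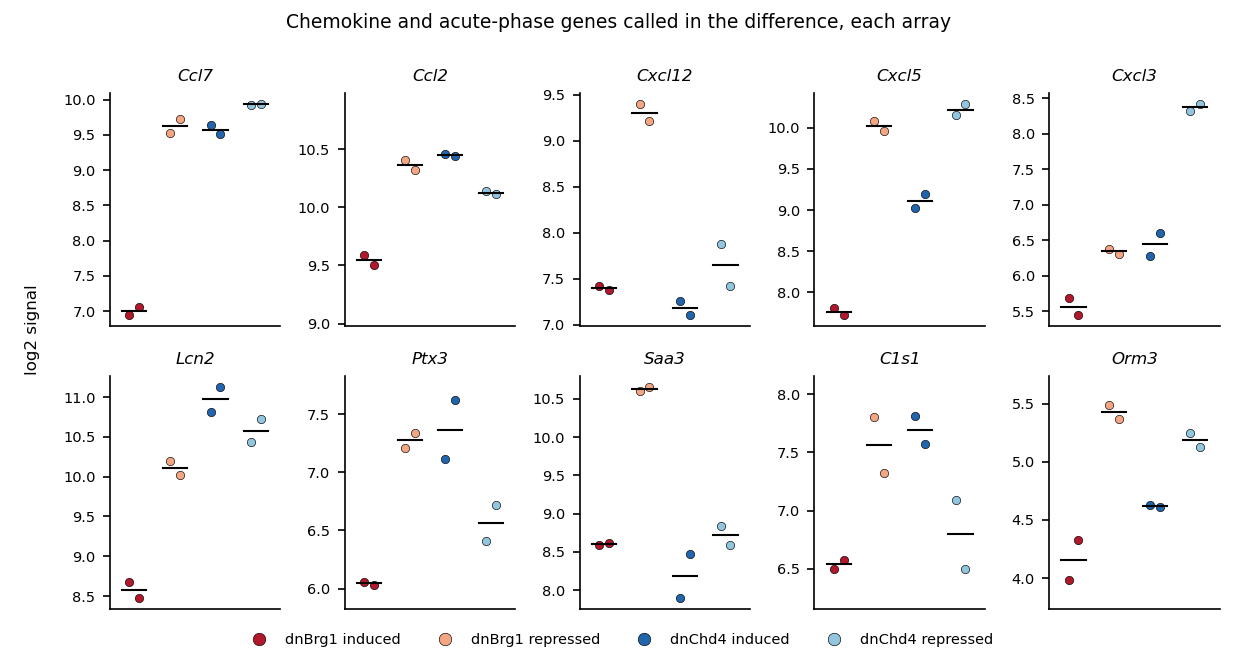
Points are log2 signals of single arrays and bars are means of 2 arrays, for the 5 chemokine genes (top row) and 5 acute-phase genes (bottom row) whose difference was called. The dnBrg1 induced arrays lie below the dnBrg1 repressed arrays in every panel, and Cxcl3 is the only panel where the dnChd4 fall is the larger. Vertical axes differ between panels and do not start at 0.

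The Ptx3 promoter is shown for its NF-kB motif, since NF-kB is a main activator of acute-phase genes. It lies at chr3:66219637-66219936 on the plus strand (RefSeq, GRCm38.p6), and capitals mark 2 overlapping matches, 1 on each strand.
Ptx3: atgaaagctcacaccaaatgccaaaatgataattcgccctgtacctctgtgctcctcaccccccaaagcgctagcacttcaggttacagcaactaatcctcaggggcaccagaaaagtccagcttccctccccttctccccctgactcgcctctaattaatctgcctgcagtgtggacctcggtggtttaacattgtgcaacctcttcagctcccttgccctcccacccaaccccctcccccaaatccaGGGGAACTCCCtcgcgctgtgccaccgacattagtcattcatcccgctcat
The matches begin at bases -1 and 0 relative to the start, so they lie at the start and downstream of it. The NF-kB motif, searched on both strands, was present in 4.51% of the 32851 promoters. Here too a match describes the letters, and binding was not tested.

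Sting1, the adaptor that relays cyclic dinucleotides to interferon genes, read 5.52 and 5.64 in dnBrg1 induced arrays, against 6.71 and 6.5 repressed, and 9.52 and 9.41 in dnChd4 induced arrays, against 8.38 and 8.34 repressed. It fell 2.03-fold with dnBrg1 and rose 2.15-fold with dnChd4 (difference -2.13 ± 0.132, adjusted p = 3.51e-06), and the lines already differed when repressed. Among 25 interferon-stimulated genes only Irgm1, an immunity-related GTPase, was called (-0.84, adjusted p = 0.0336), and in 2 of the 8 fits that left out 1 array. The median of that list was -0.07, and the call made 4% of it, against 2.23% of all genes.

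Matrix-degrading enzymes had calls in both directions. Of 22 matrix proteases and inhibitors 5 were called lower and 2 higher (31.8%, against 2.23% of all genes), with a median of -0.27. Mmp19, a metalloproteinase, read 5.13 and 5.12 in dnBrg1 induced arrays, against 5.77 and 5.53 repressed, and 7.49 and 7.54 in dnChd4 induced arrays, against 6.17 and 6.1 repressed (difference -1.91, adjusted p = 6.8e-06). Adamts1, an aggrecan-cleaving protease, fell 2.36-fold with dnBrg1 (8.17 and 8.05 induced, against 9.44 and 9.26 repressed), and its dnChd4 groups overlapped (9.84 and 10.1 induced, against 9.97 and 9.78 repressed). Mmp3, stromelysin, fell 2.43-fold with dnBrg1 (5 and 4.82 induced, against 6.21 and 6.17 repressed) and stayed dim in the dnChd4 line (4.19 and 4.2 induced, against 4.36 and 4.18 repressed), with a difference of -1.2 (adjusted p = 0.00041). Plau, the urokinase gene, rose 2-fold with dnChd4 and was not called with dnBrg1 (difference -0.92). The inhibitor gene Timp3 fell 1.3-fold with dnBrg1 and rose 1.4-fold with dnChd4 (difference -0.87), with means under the dim bound in 3 groups. The calls in the other direction were the urokinase receptor gene Plaur (1.01) and the inhibitor gene Timp1 (0.74), which rose with dnBrg1. Those 2 higher calls were 0 without dnBrg1 induced replicate 1, dnBrg1 induced replicate 2, dnBrg1 repressed replicate 1 or dnChd4 induced replicate 1.

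The Mmp3 promoter is shown for its AP-1 motif, the site through which stromelysin is classically activated. It lies at chr9:7445572-7445871 on the plus strand (RefSeq, GRCm38.p6), and capitals mark the match to TGANTCA, searched on both strands.
Mmp3: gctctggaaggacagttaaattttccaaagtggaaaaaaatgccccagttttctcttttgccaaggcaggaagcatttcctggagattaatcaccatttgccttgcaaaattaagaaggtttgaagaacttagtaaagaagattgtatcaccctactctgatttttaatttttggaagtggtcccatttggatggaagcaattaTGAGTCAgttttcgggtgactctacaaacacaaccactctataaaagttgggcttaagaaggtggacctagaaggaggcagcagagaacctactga
TGANTCA was present in 7.81% of the 32851 promoters, and binding to this match was not tested. Among 19 AP-1 and immediate early genes 1 was called higher and 1 lower (10.5%, against 2.23% of all genes), with a median of 0.1. Fosl1, an AP-1 subunit, had a difference of 0.85 (7.38 and 7.44 in dnChd4 induced arrays, against 8.19 and 8.48 repressed, with overlapping dnBrg1 groups of 8.55 and 8.5 induced, against 8.71 and 8.49 repressed). Jun, another subunit, had a difference of -0.62 and fell 1.77-fold with dnBrg1. They were called in 4 and 1 of the 8 fits that left out 1 array.

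Of 40 extracellular matrix genes 6 were called lower and 1 higher (17.5%, against 2.23% of all genes). The median was -0.22, and 30 members were below 0. Loxl1, a lysyl oxidase that crosslinks elastin, read 6.8 and 6.89 in dnBrg1 induced arrays, against 8.32 and 8.18 repressed, and 8.36 and 8.17 in dnChd4 induced arrays, against 8.56 and 8.42 repressed (difference -1.19). Its relative Loxl4 went the other way, rising 2.47-fold with dnBrg1 and 1.43-fold with dnChd4 (difference 0.79). The collagen gene Col5a2 rose in both lines and more with dnChd4 (-0.96). The collagen genes Col6a1 (-0.96) and Col1a1 (-0.77), the thrombospondin gene Thbs2 (-0.87) and the lysyl oxidase gene Loxl3 (-0.73) rose with dnChd4 and were not called with dnBrg1. The 6 lower calls were 3 without dnBrg1 induced replicate 2, 4 without dnBrg1 induced replicate 1, dnChd4 induced replicate 1 or dnChd4 repressed replicate 2, and 7 without dnBrg1 repressed replicate 2.

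Of 20 mesenchymal and fibroblast markers 5 were called lower and 0 higher (median -0.12): the receptors Pdgfrb (-1.01) and Pdgfra (-0.86), the calcium-binding protein gene S100a4 (-0.92) and the transcription factor genes Tcf4 (-0.87) and Zeb2 (-0.53). S100a4 read 7.99 and 8 in dnBrg1 induced arrays, against 9.67 and 9.69 repressed, and 9.69 and 9.61 in dnChd4 induced arrays, against 10.44 and 10.38 repressed. With dnBrg1 8 of the 20 fell and 1 rose, against 8.86% and 10.4% of all genes. With dnChd4 3 fell and 2 rose, against 9.14% and 13.5% of all genes. The count was 2 without dnBrg1 induced replicate 1, dnBrg1 induced replicate 2, dnBrg1 repressed replicate 1 or dnChd4 induced replicate 1, and 3 without dnChd4 repressed replicate 2. Of 25 epithelial markers 2 were called lower (median -0.03), the junction genes Jup (-0.86) and Cgnl1 (-0.62), which rose in both lines and more with dnChd4, and that count was 0 without dnBrg1 induced replicate 1, dnBrg1 induced replicate 2, dnBrg1 repressed replicate 1 or dnChd4 induced replicate 1. Of 17 myoepithelial and basal markers the 3 calls were Acta2, Tagln and Cnn1, already described (median -0.08). Calls made 25% of the mesenchymal, 8% of the epithelial and 17.6% of the myoepithelial list, against 2.23% of all genes. In the luminal and adipocyte lists that follow they made 5.56% and 14.3%. Gata3, a luminal transcription factor, was the only call (-0.7) among 18 milk and luminal secretory genes (median 0.04), and in 1 of the 8 fits that left out 1 array. Of 14 adipocyte markers Cd36 was called higher and the lipid droplet gene Plin4 lower (-1.19, adjusted p = 0.0498), with a median of 0, and Plin4 was called in 2 of the 8 fits that left out 1 array.

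Metabolic and stress lists held the few groups with more higher than lower calls. Of 27 ATF4 and amino acid stress genes 3 were called higher and 0 lower (11.1%, against 2.23% of all genes). Of the 27, 23 lay above 0, with a median difference of 0.34. With dnChd4 21 members fell and 1 rose, against 9.14% and 13.5% of all genes, with a median induction of -0.78. With dnBrg1 15 fell and 1 rose, against 8.86% and 10.4% of all genes, with a median of -0.28. Slc1a5, a glutamine carrier, read 8.72 and 8.76 in dnBrg1 induced arrays, against 9.46 and 9.44 repressed, and 8.42 and 8.47 in dnChd4 induced arrays, against 9.85 and 10.26 repressed (difference 0.9, adjusted p = 0.0121). Ddit4, an mTOR inhibitor gene (0.75), and Cebpb, a transcription factor gene (0.55), fell with dnChd4 and were not called with dnBrg1. The 3 calls were 0 without dnBrg1 induced replicate 1, dnBrg1 induced replicate 2, dnBrg1 repressed replicate 1 or dnChd4 induced replicate 1, 1 without dnBrg1 repressed replicate 2 or dnChd4 repressed replicate 2, 2 without dnChd4 induced replicate 2 and 6 without dnChd4 repressed replicate 1. Of 14 serine and folate one-carbon genes 2 were called higher (median 0.15), Psph (0.84), the last enzyme of serine synthesis, and Shmt1 (0.6), and that count was 0 without any of the dnBrg1 arrays, dnChd4 induced replicate 1 or dnChd4 repressed replicate 2, 1 without dnChd4 induced replicate 2 and 3 without dnChd4 repressed replicate 1. Of 21 iron and heme handling genes 2 were called higher (9.52%, median 0.19), Slc40a1 and Hmox1, the heme-degrading oxygenase gene. Hmox1 read 7.9 and 7.9 in dnBrg1 induced arrays, against 6.61 and 6.47 repressed, and 8.21 and 8.15 in dnChd4 induced arrays, against 7.44 and 7.51 repressed, with a difference of 0.66 (adjusted p = 0.0117) called in 4 of the 8 fits that left out 1 array. The ferritin genes Fth1 (0.05) and Ftl1 (0.01) and the transferrin receptor gene Tfrc (0.22) were not called. The serine and folate calls made 14.3% of their list.

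Gstm5, a glutathione transferase gene of the mu class, read 9.04 and 9.07 in dnBrg1 induced arrays, against 7.97 and 7.85 repressed, and 10.79 and 10.72 in dnChd4 induced arrays, against 7.63 and 7.48 repressed (difference -2.06 ± 0.122, adjusted p = 2.58e-06). Gstm1 fell 1.54-fold with dnBrg1 and rose 1.56-fold with dnChd4 (difference -1.26), and Gstm6, dim in 3 groups, had a difference of -0.8 that was called in 2 of the 8 fits that left out 1 array. They were the 3 lower calls, beside 0 higher, among 28 glutathione and NRF2 target genes (10.7%, against 2.23% of all genes, median 0.01). They are close paralogs, and sharing of probes was not tested. Aldh1a1, which makes retinoic acid, rose 2.55-fold with dnBrg1 (7.65 and 7.57 induced, against 6.32 and 6.2 repressed) and 10.5-fold with dnChd4 (8.74 and 8.95 induced, against 5.7 and 5.2 repressed), a difference of -2.04 (adjusted p = 0.000161). Aqp1, a water channel, fell 4.17-fold with dnBrg1 (8.21 and 8.14 induced, against 10.26 and 10.23 repressed) and its dnChd4 groups overlapped (9.87 and 9.79 induced, against 9.83 and 9.91 repressed), a difference of -2.02 (adjusted p = 2.35e-06).

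Of 24 p53 target genes 3 were called lower and 0 higher (12.5%, against 2.23% of all genes), with a median of -0.15. With dnBrg1 9 of the 24 rose and 2 fell, against 10.4% and 8.86% of all genes. With dnChd4 12 rose and 2 fell, against 13.5% and 9.14% of all genes. The called differences were Trp53inp1 (-1.06), Zmat3 (-0.58) and Perp (-0.56), an apoptosis effector also found in desmosomes. Trp53inp1 and Perp rose in both lines and more with dnChd4. Zmat3 rose with dnChd4 and was not called with dnBrg1. The count was 0 without dnBrg1 induced replicate 1, dnBrg1 induced replicate 2, dnBrg1 repressed replicate 1, dnChd4 induced replicate 1 or dnChd4 repressed replicate 2, 1 without dnChd4 induced replicate 2 and 2 without either remaining array. Of 20 YAP and TEAD targets only Ccn1, a matricellular protein gene, was called (5%), at -0.91 (adjusted p = 0.049), with a list median of -0.1. Of 24 glucocorticoid receptor targets Lcn2 was called lower and Ddit4 higher (8.33%, median 0.06). With 1 array left out, Ccn1 was called in 2 and Ddit4 in 1 of the 8 fits. Of 35 lysosome genes 2 were called lower (5.71%, median -0.03), the proton pump gene Atp6v1a (-1) and the cholesterol exporter gene Npc1 (-0.54). Npc1 was called in 2 of the 8 fits that left out 1 array, without dnBrg1 repressed replicate 2 and without dnChd4 repressed replicate 1, and the count was 1 in the other fits. Atp6v1a and Npc1 rose in each line. Of the lysosome genes 21 rose with dnBrg1 and 24 with dnChd4, against 10.4% and 13.5% of all genes.

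**Figure D5:**
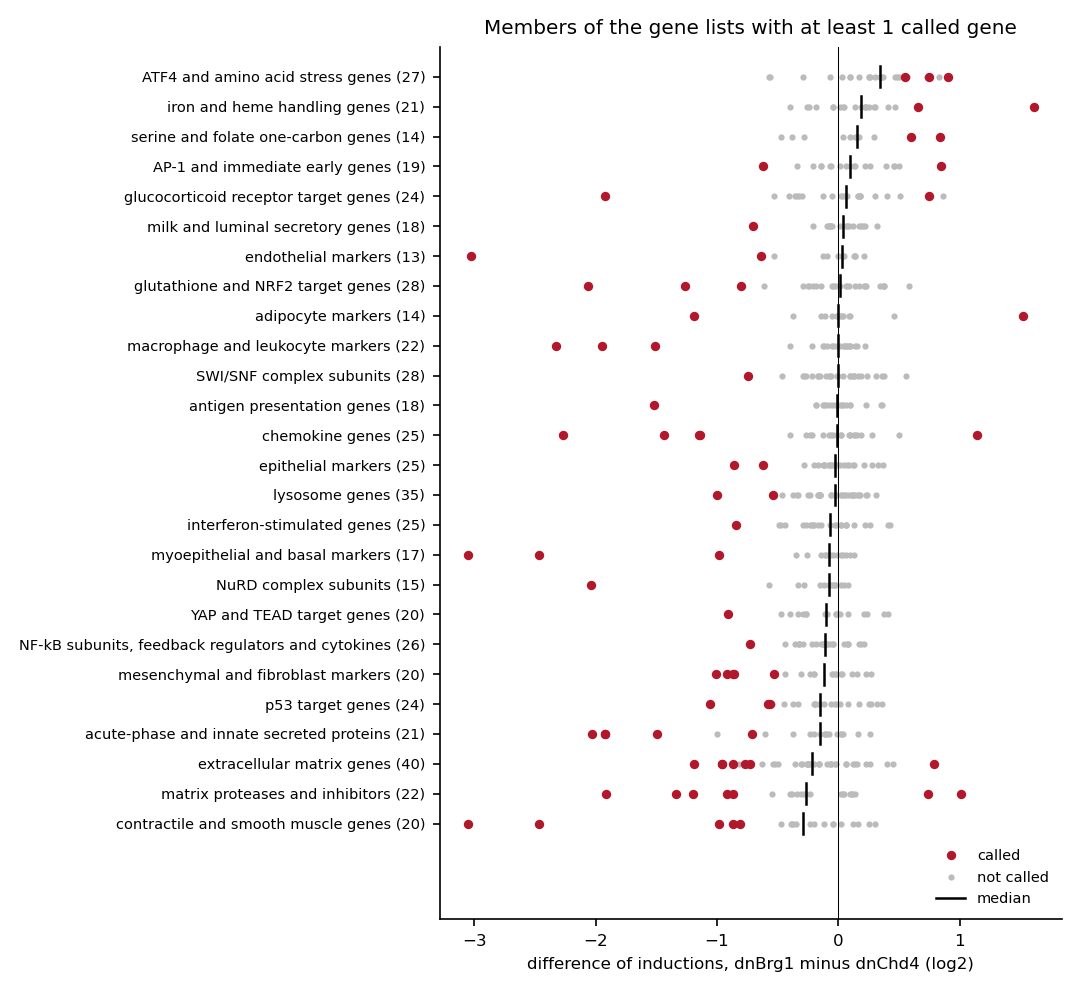
Each point is the difference of inductions of 1 list member in log2, red where it was called and grey where not, and the black tick is the list's median. Lists with at least 1 call are ordered by median, and the number measured is in brackets. Contractile genes have the lowest median, -0.29, and ATF4 genes the highest, 0.34.

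Some lists moved in both lines with no called difference. All 30 G2 and mitosis genes fell with dnBrg1 and all 30 fell with dnChd4, with medians of -0.77 and -0.75 and a median difference of -0.05. Of 35 S phase and DNA replication genes 31 fell with dnBrg1 and 33 with dnChd4, against 8.86% and 9.14% of all genes. Of their differences 30 lay above 0, with a median of 0.16. The 20 cholesterol synthesis genes (median 0.04) and 22 unfolded protein response genes (median 0.05) also had 0 calls, so 4 of the 30 lists had none. The genes that moved most in both lines without a called difference included Tcp11l2, Dhx40, the sialidase gene Neu1, Grk4 and Lyz2, which rose, and Aldh1l2, Snhg5, Trib3 and the transporter genes Slc7a11 and Slc6a15, which fell. Dhx40, an RNA helicase gene, rose 4.35-fold with dnBrg1 and 3.42-fold with dnChd4, and its difference was 0.34 with an interval of 0.06 to 0.63 (adjusted p = 0.252). Aldh1l2, a mitochondrial folate enzyme, fell 4.89-fold with dnBrg1 and 3.76-fold with dnChd4, with a difference of -0.38 and an interval of -0.69 to -0.08 (adjusted p = 0.227). A missed call does not show that the lines responded alike.

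The third dominant-negative line, dnSnf2h, has its own repressed and induced arrays, which did not enter the fit that gave the 445 genes. They did count in the choice of probe set for the 999 genes that had more than 1. For the 99 higher genes the median induction was 0.5 with dnBrg1, -0.19 with dnChd4 and -0.07 with dnSnf2h, and 84 genes (84.8%) had a dnSnf2h induction nearer to the dnChd4 value than to the dnBrg1 value. For the 346 lower genes the medians were -0.15, 0.64 and 0.26, and 192 (55.5%) were nearer to dnChd4, against 52.3% of all genes tested. Csnk1g1 (0.24) and Auts2 (-0.07) had dnSnf2h inductions close to their dnChd4 values. Acta2 read 8.14 and 8.89 in dnSnf2h induced arrays, against 6.08 and 6.31 repressed, close to its dnChd4 response, while Susd2 (4.5 and 4.92 induced, against 4.72 and 4.9 repressed) had overlapping groups. These are values side by side, with no test between the third line and the others.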

How the data were processed

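RNA of 3134 derivatives was measured on Affymetrix whole-transcript mouse arrays (Mouse Gene 1.0 ST). Per the labels' protocols, some 100 ng went into each labelling. The deposited table holds 1 log2 signal per probe set and array, as judged from its values. Per the submitters' processing notes the authors used Affymetrix Expression Console. No version, normalization or genome build is stated there, so the effect of the normalization on small changes cannot be judged.

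Of 35557 probe sets 21789 had 1 gene symbol, 1621 had several and 12147 had none. The brightest singly named probe set was kept for each gene, which left 19938 genes. The 8 arrays were fitted in limma 3.58.1 under R 4.3.3 with 1 mean per group (lmFit, contrasts.fit, eBayes, 4 residual and 7.89 prior degrees of freedom), with no further scaling. Tests were two-sided, with Benjamini-Hochberg adjustment over all genes and a threshold of 0.05. Folds are 2 to the power of log2 differences. On simulated data with known changes the fit recovered 23 of 50 genes with a difference of 0.5 and all 50 at 1, 1.5 and 2. There were 13 false calls among the genes given no change, of 19938 genes in all. The simulation drew independent normal noise with the fit's own variances. Deviations that the genes of an array share were not in it, so its counts do not carry over to these arrays. Tables were handled in Python 3.11.15 with pandas 2.3.3.

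Genes were named by rule. The rule took the 15 highest and 15 lowest called differences, up to 4 called members of each list by p, up to 6 genes per orientation called in opposite directions, 5 genes per direction that moved in both lines with no called difference, and Smarca4, Chd4, Smarca2, Chd3 and Nr3c1. This gave 93 genes, of which 1 result is not reported here. Clone-type, olfactory, vomeronasal and small RNA names were passed over. A further 29 genes were added after their values were seen, and so were the list members named as examples without a call. The comparison, the 30 lists (679 different genes measured of 723) and the naming rule were chosen with earlier results of these data known, so list counts are descriptions and carry no test.

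Promoters are RefSeq sequences on GRCm38.p6, found for 63 of the 93 genes. Replicate numbers were not treated as pairs in the main fit. Same-numbered arrays deviated from their group means with correlations of -0.0763 to 0.135. These values cannot exclude a preparation shared by some same-numbered arrays, since the labels do not give one. Alternatives were other sets of arrays, the replicate block, trended and robust moderation, array weights, a filter on dim genes, quantile or median scaling, the mean of probe sets, all probe sets, and each array left out.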

Additional observations from a re-analysis of the deposited data

Results flagged for a closer look

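In 39 genes the inductions of the lines were called in opposite directions, 5 rising with dnBrg1 and falling with dnChd4 and 34 the reverse. All 39 also passed limma's test of the difference itself. That is no separate support, since opposite inductions add up in the difference. The genes named in the text follow. Groups of 2 arrays are too small for a check of single arrays against their group.

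The named genes that rose with dnBrg1 and fell with dnChd4 were Dynap, Msln, Bnip3 and Acy1. Dynap, the gene of a dynactin-associated protein, read 6.2 and 6.3 in dnBrg1 induced arrays, against 5.72 and 5.67 repressed, and 5.34 and 5.21 in dnChd4 induced arrays, against 6.13 and 6.5 repressed. Its difference was 1.6 ± 0.159 (SE, limma adjusted p = 0.00019). Msln, the surface antigen mesothelin, had a difference of 1.24 (10.37 and 10.39 in dnBrg1 induced arrays, against 9.41 and 9.52 repressed, and 9.92 and 9.69 in dnChd4 induced arrays, against 10.14 and 10.11 repressed). Bnip3, a mitophagy receptor gene, had a difference of 1.18, with inductions of 0.76 with dnBrg1 and -0.41 with dnChd4. Acy1, an aminoacylase gene, had a difference of 0.63, with inductions of 0.37 and -0.26, and was called in 4 of the 8 fits that left out 1 array.

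Of the genes that fell with dnBrg1 and rose with dnChd4, those with the smallest p were Lncenc1, Sting1, Mmp19, Tnnt2, Lcn2 and Etl4. Their differences were -2.25 for Lncenc1, -2.13 for Sting1, -1.91 for Mmp19, -2.38 for Tnnt2, -1.92 for Lcn2 and -1.32 for Etl4, and each was called whichever array was left out. Lncenc1, a noncoding RNA gene, read 4.15 and 4.21 in dnBrg1 induced arrays, against 4.5 and 4.5 repressed, which are all under the dim bound of 4.749, and 6.76 and 6.53 in dnChd4 induced arrays, against 4.82 and 4.62 repressed. Etl4 read 6.26 and 6.21 in dnBrg1 induced arrays, against 6.68 and 6.76 repressed, and 7.53 and 7.3 in dnChd4 induced arrays, against 6.57 and 6.59 repressed. The dnChd4 call of Lcn2 was close to the threshold (limma adjusted p = 0.0499). The others named were Ptx3 (-2.03), C1s1 (-1.92), Cd68 (-1.51), Gstm1 (-1.26), Ccl2 (-1.15), Sema3a (-0.98), Tcf4 (-0.87), Timp3 (-0.87) and Csf1 (-0.73). Of these, Timp3 was called in 4 and Csf1 in 2 of the 8 fits that left out 1 array, and the rest whichever array was left out.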

How the results depend on the processing

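The number of calls depended on the arrays in the fit. Of the 445 calls, 26 were kept with all 17 arrays in the fit and 433 with the replicate block. In the alternatives run, 0 of the kept calls changed direction, which was largely fixed in advance. Each group has its own mean, so arrays of other groups, the replicate block and the moderation leave a gene's difference unchanged. They alter only its error and degrees of freedom. The fits that left out 1 array share most of their arrays with the main fit. With all 17 arrays the difference was called for 26 genes (7 higher, 19 lower), the dnBrg1 induction for 68 and the dnChd4 induction for 19; with the 12 arrays of the dominant-negative lines the difference was called for 254 (56 higher, 198 lower); with all probe sets for 94 (13 higher, 81 lower), where the prior degrees of freedom were 2.94. The cause of the lower counts was not tested. With 1 array left out the difference was called for 161 to 440 genes (27 to 90 higher, 131 to 361 lower), the dnBrg1 induction for 2036 to 4109 and the dnChd4 induction for 2903 to 5086. With the replicate block, which rests on shared numbers only, the difference was called for 514 genes. Quantile scaling gave 476 genes and trended and robust moderation gave 570. Of 106 named called genes 15 were called under every alternative that measured them and 58 whichever array was left out.

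Genes with no called difference changed sign near 0. Chd3 was 0.01 under quantile scaling and ran from -0.11 to 0.05 with 1 array left out, Grk4 from -0.26 to 0.13, Cdh5 from -0.25 to 0.36, Nr3c1 from -0.03 to 0.18 and Cryab from -0.37 to 0.03. Without dnChd4 repressed replicate 1, Slc7a11 (1.03) and Trib3 (0.8) passed the threshold. The array count and the dim bound of 4.749 limit what could be called: 6 higher and 18 lower genes had means under that bound.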

Other observations

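Some groups of genes were looked up after the values had been seen, so their counts describe these arrays and support nothing further. Over all genes 0.497% were called higher and 1.74% lower. Of 32 glycolysis and hypoxia response genes 6 differences were called higher and 2 lower by limma, with a median of 0.11. The higher count was 1 without dnBrg1 induced replicate 2 or dnChd4 repressed replicate 2, 2 without dnBrg1 induced replicate 1 or dnChd4 induced replicate 1, 3 without either dnBrg1 repressed array or dnChd4 induced replicate 2, and 7 without dnChd4 repressed replicate 1. The lower count was 0 to 1 in these fits, apart from 3 without dnChd4 repressed replicate 1. Hk2, which traps glucose, read 8.23 and 8.16 in dnBrg1 induced arrays, against 8.4 and 8.42 repressed, and 7.79 and 7.86 in dnChd4 induced arrays, against 8.59 and 9.01 repressed (difference 0.76, adjusted p = 0.0335). Vegfa, the vessel growth factor gene (0.69), and Ddit4 (0.75) fell with dnChd4 and were not called with dnBrg1. Angptl4, a lipase inhibitor gene (0.95), and Ero1a, an endoplasmic reticulum oxidase gene (0.66), rose with dnBrg1 and were not called with dnChd4, and Bnip3 (1.18) moved in opposite directions. The lower calls were Adm, the adrenomedullin gene (-0.52), and P4ha2, a collagen prolyl hydroxylase gene (-0.74), and Bnip3l, the relative of Bnip3, rose in both lines, by 0.32 and 0.4 (difference -0.09).

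Of 27 axon guidance ligand and receptor genes 6 were called lower and 0 higher, with a median of -0.08. The shares of all genes were 1.74% lower and 0.497% higher. Robo1, a Slit receptor gene, read 5.78 and 5.85 in dnBrg1 induced arrays, against 5.75 and 5.81 repressed, and 6.71 and 6.54 in dnChd4 induced arrays, against 5.33 and 5.32 repressed (difference -1.26, limma adjusted p = 0.00017). The others were Sema3a (-0.98), Plxna3 (-0.98), Unc5b (-0.92), Sema3c (-0.84) and Nrp2 (-0.52), and Robo1, Sema3a, Plxna3 and Unc5b were called whichever array was left out. Of 9 small heat shock protein genes 3 were called lower and 0 higher (median -0.14). The lower count was 1 without either dnBrg1 induced array, dnBrg1 repressed replicate 2, dnChd4 induced replicate 1 or dnChd4 repressed replicate 2, and 2 without any other array. Hspb1 rose 1.25-fold with dnBrg1 and 2.92-fold with dnChd4 (difference -1.22), Hspb2 (-0.57) and Hspb6 (-0.65) were also called, and Cryab rose in both lines, by 1.02 and 1.19 (difference -0.17).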
